A study of Mus musculus with 8 samples.

Results

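The 9 genes described here carry iron out of cells, into cells and into store: Slc40a1, Cp, Heph, Hamp, Trf, Tfrc, Slc11a2, Fth1 and Ftl1. They are 9 of the 24963 genes in the table and were picked by symbol. The choice followed from Slc40a1, whose mRNA is higher in Nr2f2 d/d uteri, and the other 8 genes were taken for their part in the same pathway. The Slc40a1 difference is therefore given as a description with no test. Of the 9 genes, 8 passed the filter on low values, a mean of 0.5 FPKM (fragments per kilobase of transcript, scaled to the mapped total of each library) or more, and Hamp did not.

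The table holds RNA-seq of whole uteri from 8 female mice of strain C57B6/J, with 4 Nr2f2 f/f and 4 Nr2f2 d/d libraries. Females were mated at 8 weeks of age per the labels and received no treatment, and the tissue was taken on gestational day (GD) 3.5. Per the study's methods the males were vasectomized, so no embryos were present. Nr2f2 encodes COUP-TFII, an orphan nuclear receptor of the uterine stroma, and Nr2f2 f/f mice carry floxed alleles of it without Cre (the labels call them WT). Nr2f2 d/d mice carry the same floxed alleles together with Pgr Cre/+, a knock-in that expresses Cre from the progesterone receptor gene, so deletion is limited to cells that have expressed Pgr. The Cre allele was absent from the controls, and an effect of that allele and of the deletion cannot be told apart here. The groups are called control (Nr2f2 f/f) and mutant (Nr2f2 d/d) uteri below, and a number after either word is the replicate.

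Nr2f2 mRNA, the check of the labels, was 24.1 ± 1.80 FPKM in controls and 8.93 ± 1.36 FPKM in mutant uteri (mean ± SD, n = 4 each). Its log2 fold change was -1.39 ± 0.12 (SE, limma adjusted p = 0.00549). The library depths worked out from short genes were 61450000 to 92650000 fragments, with medians of 62375000 in controls and 81050000 in mutants. Markers of stroma, smooth muscle and epithelium, the main compartments of the uterus, were all above the filter (12 of 12, 10 of 10 and 12 of 12 genes), while the liver marker Alb was near 0. At an adjusted p under 0.05, limma called 375 of 14323 genes (2.62%), of which 156 were higher and 219 lower in the mutants.

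Iron enters most cells bound to transferrin, which docks on the transferrin receptor and is taken into endosomes, where iron is released, reduced and carried to the cytosol. Iron not used at once is kept in ferritin, a shell of heavy and light chains. It leaves through ferroportin, the product of Slc40a1 and the iron exporter of vertebrate cells, and a copper ferroxidase outside the cell oxidizes it for loading on transferrin. Hepcidin, a peptide hormone made mainly by the liver, binds ferroportin and sends it for degradation. Cells also control this system after transcription, since iron regulatory proteins bind hairpins in the mRNAs called iron-responsive elements: bound in a 5′ UTR they block translation, and bound in the 3′ UTR of the receptor mRNA they keep it stable.

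These hairpins are shown because they act on the mRNAs measured here, on translation in Slc40a1, Fth1 and Ftl1 and on mRNA stability in Tfrc. Each has a C bulge, a paired stem and the loop CAGTGN, and the search for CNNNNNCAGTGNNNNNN required the 5 bases on either side of the loop to pair, G with T included. It was run on the transcript strand of the untranslated regions of GENCODE vM21 transcripts (mm10). The sequences are printed 5′ to 3′ as DNA, 30 bases each, with the loop in capitals.
Slc40a1, 5′ UTR, chr1:45925465-45925494, minus strand: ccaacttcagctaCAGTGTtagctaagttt
Fth1, 5′ UTR, chr19:9982731-9982760, plus strand: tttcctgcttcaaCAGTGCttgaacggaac
Ftl1, 5′ UTR, chr7:45459779-45459808, minus strand: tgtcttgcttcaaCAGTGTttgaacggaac
Tfrc, 3′ UTR, chr16:32631218-32631247, plus strand: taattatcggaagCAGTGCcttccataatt
Tfrc, 3′ UTR, chr16:32631597-32631626, plus strand: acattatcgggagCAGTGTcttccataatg
Tfrc, 3′ UTR, chr16:32631662-32631691, plus strand: tctatatcggagaCAGTGAtctccatatgt
Tfrc, 3′ UTR, chr16:32631709-32631738, plus strand: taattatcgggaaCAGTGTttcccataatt

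Of 21866 protein-coding genes searched, 31 (0.142%) held a match in a 5′ UTR and 129 (0.59%) in a 3′ UTR, and 4 of the 9 iron genes were among them. The 2 ferritin hairpins differ at 3 of 30 bases. The Slc40a1 hairpin lies in the same part of the mRNA but differs from that of Fth1 at 17 of 30 bases. Tfrc holds 4 matches within 521 bases, which differ from each other at 5 to 12 of 30 bases. A match is a description of letters. A gene without one, such as Slc11a2, may hold an element of another form that this search would miss. FPKM values do not measure translation, so the levels of Slc40a1, Fth1 and Ftl1 mRNA given here do not show how much protein was made.

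Slc40a1 (ENSMUSG00000025993, chr1:45908068-45926523, minus strand) was at 3.25, 6.14, 7.88 and 4.28 FPKM in controls 1 to 4. In mutants 1 to 4 it was at 54.2, 27.6, 54.9 and 13.3 FPKM. Every mutant uterus was above every control uterus, with mutant 4 the nearest, at 1.69 times the highest control. The means were 5.39 ± 2.05 and 37.5 ± 20.5 FPKM (SD, n = 4 each). Their ratio was 6.96 and the log2 fold change 2.55 on the log2(FPKM + 0.5) scale, on which all fold changes here are given. That placed it 18th from the top of 14323 genes by fold change, and its mean level moved from the 36.5 to the 88.7 percentile of the genes tested.

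The mutant uteri were far from uniform in Slc40a1. The highest was 4.11 times the lowest among mutant uteri and 2.43 times among controls. Leaving out each library in turn gave log2 fold changes of 2.30 to 2.97. In whole tissue, fewer cells of a type and less RNA per cell cannot be told apart, nor can more cells and more RNA per cell.

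Macrophages, which export iron from digested red cells, hold much of the body's ferroportin, and epithelial and other cells hold it too. None of 12 macrophage markers was called at the adjusted threshold, but 11 of 12 had a positive log2 fold change. Their median was 0.33, beside -0.02 over all genes. Lyz2, the highest in level, was at 0.87 (limma unadjusted p = 0.0186, adjusted p = 0.153) and met the study's threshold. Summed over the list, the level was 271 to 528 FPKM in controls and 419 to 716 FPKM in mutant uteri, with overlapping ranges. Spic, which defines splenic iron-recycling macrophages, was at 0.050 to 0.196 FPKM in all 8 libraries and Cd163 at 0.092 to 0.275 FPKM. The sum of that 8-gene list, led by Hmox1, was 13.0 to 19.2 FPKM in controls and 15.7 to 18.7 FPKM in mutants, and none of its 3 tested genes was called.

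Marker levels of other compartments differed between the genotypes. Beside the counts given here and in the next paragraph, 1.09% of all genes were called higher and 1.53% lower. Of 12 luminal and general epithelial markers, Krt8 and Elf3 were called higher, and the summed level was 640 to 753 FPKM in controls against 905 to 1103 FPKM in mutants. The epithelial genes differed in size of change: 11 were positive and 1 negative, from 1.43 (Elf3) to -0.05 (Cldn4), with Epcam and Krt18 at 0.06. Of 12 stromal markers, led by Col3a1, Col1a2 and Dcn were called higher, with sums of 1940.0 to 2339 against 2745 to 5173 FPKM. The stromal genes were not of one direction: 6 of 12 were positive, among them the collagens, Dcn and Lum, and 6 were negative, among them Vim (log2 fold change -0.66, adjusted p = 0.113), Pdgfra (-0.20) and Hoxa11 (-0.18). Of 10 endothelial markers, led by Egfl7, 6 were called lower, with sums of 339 to 457 against 214 to 265 FPKM.

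Summed markers of 4 further lists had separate ranges, which in all but the neutrophil list came to overlap once the leading gene was left out. The T and NK cell list had 2 of 8 tested genes called higher, Gzmb and Cd3d, and sums of 53.7 to 73.6 against 75.6 to 227 FPKM, which overlapped without Gzmb (30.8 to 49.2 against 24.2 to 96.1). The 3 tested neutrophil markers were not called, with sums over the list of 3.02 to 16.9 against 18.1 to 42.1 FPKM. Without S100a9, the leading gene, the sums stayed separate (2.18 to 9.42 against 10.2 to 22.6). Those sums still held S100a8, itself at 0.953 to 5.37 against 7.76 to 17.1 FPKM. The other tested gene, Csf3r, overlapped (0.903 to 3.19 against 1.69 to 3.79 FPKM). Of the 6 mesothelial markers, Msln was called higher, with sums of 131 to 168 against 213 to 306 FPKM. Without Krt19, which is also on the epithelial list, they overlapped (69.6 to 95.8 against 87.2 to 109). Spink1, of the glandular list, was the gene called lower there, with sums of 246 to 3329 against 84.3 to 190.0 FPKM, and without it the sums overlapped (130.4 to 1998 against 81.8 to 166). Of the 8 glandular genes 3 were positive and 5 negative, from Cxcl15 at 1.02 and Wfdc3 at 0.55 to Prss28 at -3.52 and Prss29 at -4.18, none of these 4 called. No gene of the smooth muscle list, led by Tagln, was called, and its sums overlapped (1555 to 2243 against 1318 to 3118 FPKM). The part of these shifts in the Slc40a1 difference was not tested.

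**Figure D1:**
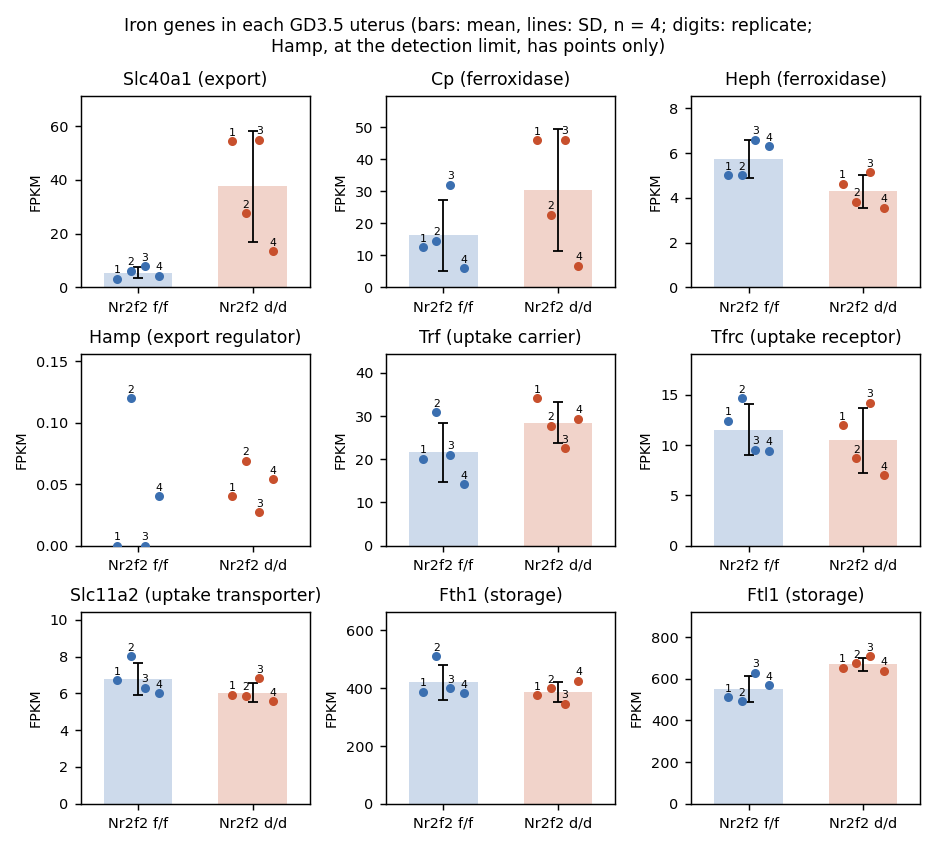
Level of each of the 9 iron genes in every library, in FPKM on linear axes from 0, for Nr2f2 f/f (blue) and Nr2f2 d/d (red) uteri; points are libraries numbered by replicate, bars are means and lines are SD (n = 4), and Hamp has points only. Slc40a1 and Ftl1 are the genes with every Nr2f2 d/d point above every Nr2f2 f/f point.

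Among the 7 other iron genes that were tested, none passed an adjusted p of 0.05 by limma, against 2.62% of all genes. At an unadjusted p under 0.05, Ftl1 and Heph passed, 2 of 7 against 21.2% of all genes, and none also reached the 1.4-fold change that the study used with that p (8.80% of all genes did, 4.70% higher and 4.10% lower). The median log2 fold change of the 7 genes was -0.11, beside -0.02 over all genes, with 3 genes on the higher side and 4 on the lower. With 4 uteri in each group the smallest p that the two-sided exact permutation test can give is 0.0286.

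**Figure D2:**
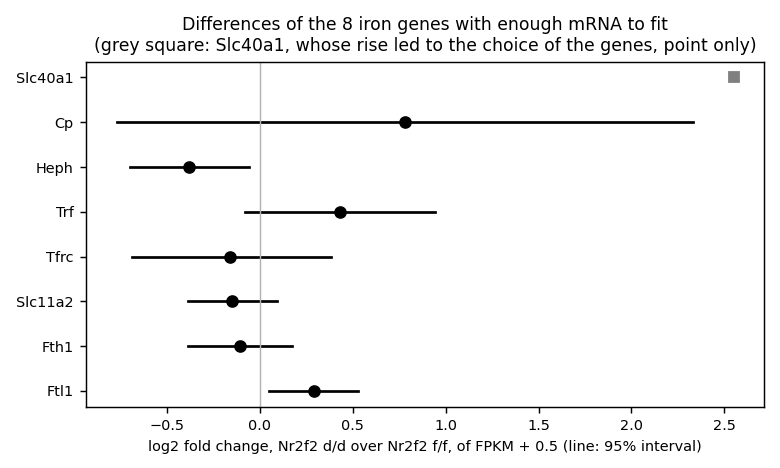
Log2 fold change of Nr2f2 d/d over Nr2f2 f/f on the log2(FPKM + 0.5) scale for the 8 iron genes that passed the filter; lines are 95% intervals of the limma fit over 8 libraries, and Slc40a1, on which the choice of genes rested, is a grey point without one. Slc40a1 lies at 2.55, and the other 7 lie between -0.38 (Heph) and 0.78 (Cp).

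Ceruloplasmin, encoded by Cp (ENSMUSG00000003617, chr3:19957054-20009145, plus strand), is the copper ferroxidase of plasma and, in a membrane-bound form, of some tissues. Cp was at 12.6, 14.5, 32.0 and 6.07 FPKM in controls 1 to 4 and at 45.9, 22.7, 46.0 and 6.83 FPKM in mutants 1 to 4. Mutants 1 and 3 stood above all controls, mutant 2 was below control 3, and mutant 4 lay near the lowest control. Its log2 fold change was 0.78 with a 95% interval of -0.77 to 2.33 (adjusted p = 0.540, exact permutation p = 0.371). The value fell to 0.41 once control 4 was left out and grew to 1.36 once mutant 4 was, and no fit that left out 1 library brought the adjusted p under 0.214.

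Hephaestin, from Heph (ENSMUSG00000031209, chrX:96455359-96574485, plus strand), is a membrane ferroxidase best known in the intestine, where it acts beside ferroportin. Heph was at 5.02, 5.01, 6.60 and 6.32 FPKM in controls 1 to 4 and at 4.63, 3.83, 5.16 and 3.57 FPKM in mutants 1 to 4. It leaned the other way from Slc40a1 and Cp: 3 of the 4 mutant uteri lay below all controls, and mutant 3 lay within their range. This gave a log2 fold change of -0.38 (95% interval -0.70 to -0.06), with an unadjusted p of 0.0244 by limma, an adjusted p of 0.176 and an exact permutation p of 0.0857. Hephl1, the further member of the ferroxidase family, was at 0.006 FPKM or below in every library.

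Hamp (ENSMUSG00000050440, chr7:30942368-30944032, minus strand), the hepcidin gene, was close to undetectable. Its values were 0, 0.120, 0 and 0.040 FPKM in controls 1 to 4 and 0.040, 0.069, 0.027 and 0.054 FPKM in mutants 1 to 4. With the 410 annotated exon bases these values correspond to 0 to 3 fragments per library, and in the smallest library 3 fragments, the limit that a count of 0 allows, are worth 0.119 FPKM. Hamp2, a related gene nearby, was listed at 0 in all libraries except mutants 2 and 4. How alike the Hamp and Hamp2 sequences are was not compared, and reads could be split between them. No difference in Hamp was detectable at this depth.

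Transferrin, the plasma carrier of iron, is encoded by Trf (ENSMUSG00000032554, chr9:103204001-103230444, minus strand). Trf was at 20.2, 30.9, 21.0 and 14.2 FPKM in controls 1 to 4 and at 34.2, 27.8, 22.6 and 29.4 FPKM in mutants 1 to 4. Only mutant 1 exceeded the highest control. Its log2 fold change was 0.43 (95% interval -0.08 to 0.94, adjusted p = 0.310, exact permutation p = 0.143). Leaving out control 4 gave 0.25 and leaving out control 2 gave 0.62, neither past the threshold. The annotation places Gm20425 over 63.5% of the exon bases of Trf on the same strand, and how such fragments were assigned is not given in the sources used here.

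Tfrc (ENSMUSG00000022797, chr16:32608920-32632794, plus strand) encodes the transferrin receptor, whose mRNA holds the 4 matches printed above. Tfrc was at 12.4, 14.7, 9.53 and 9.44 FPKM in controls 1 to 4 and at 12.0, 8.70, 14.2 and 6.99 FPKM in mutants 1 to 4. The ranges overlapped widely, and the mutant uteri held the lowest value and the second highest. The log2 fold change was -0.16 (95% interval -0.69 to 0.38, adjusted p = 0.736, exact permutation p = 0.543).

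Slc11a2 (ENSMUSG00000023030, chr15:100387898-100425072, minus strand) encodes DMT1, the transporter that moves iron from the gut lumen and out of endosomes. Slc11a2 was at 6.70, 8.02, 6.31 and 6.02 FPKM in controls 1 to 4 and at 5.92, 5.87, 6.82 and 5.57 FPKM in mutants 1 to 4. Mutants 1, 2 and 4 were below all controls by small margins and mutant 3 was not. This gave a log2 fold change of -0.15 (95% interval -0.39 to 0.09, adjusted p = 0.449, exact permutation p = 0.171).

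The ferritin chains were the most abundant mRNAs of the set by far, at the 99.3 percentile of the genes tested or higher in both groups. The heavy chain oxidizes iron as it enters the shell. Its gene Fth1 (ENSMUSG00000024661, chr19:9980598-9985098, plus strand) was at 388, 511, 400 and 383 FPKM in controls 1 to 4 and at 377, 400, 347 and 426 FPKM in mutants 1 to 4. Control 2 stood apart at the top and the other 7 libraries interleaved. The log2 fold change was -0.11 (95% interval -0.39 to 0.17, adjusted p = 0.634, exact permutation p = 0.429), and -0.01 without that library.

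The light chain helps to form the mineral core. Ftl1 (ENSMUSG00000050708, chr7:45457944-45459884, minus strand) was at 512, 491, 629 and 569 FPKM in controls 1 to 4 and at 653, 675, 708 and 639 FPKM in mutants 1 to 4. All 4 mutant uteri were above all 4 controls, as for 5.49% of all genes tested (9.91% had all mutants below and 15.4% either), though mutant 4 exceeded control 3 only narrowly. The log2 fold change was 0.29 (95% interval 0.05 to 0.53), with an unadjusted p of 0.0250 by limma, an adjusted p of 0.178 and an exact permutation p of 0.0286, the smallest possible. Ferritin genes have processed pseudogenes, 7 by symbol in the annotation and 1 of them in the table, and fragments from near-identical copies are uncertain. Other annotated genes cover 34.6% of the exon bases of Ftl1, with 26.5% under Gm10252 on the opposite strand and 8.1% under Gm22133 on the same strand. How such fragments were assigned is not given either.

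The balance of the chains within each library does not depend on how libraries were scaled. The ratio of Fth1 to Ftl1 FPKM was 0.758, 1.04, 0.636 and 0.673 in controls 1 to 4 and 0.576, 0.593, 0.490 and 0.668 in mutants 1 to 4. The mutant ratios were below all controls except in mutant 4, which lay within the control range. The mean log2 ratio differed by -0.40 (exact permutation p = 0.0571), by -0.25 without control 2 (exact permutation p = 0.114) and by -0.49 without control 3 (exact permutation p = 0.0286). The sum of the chains was 970.3 ± 56.9 FPKM in controls and 1056 ± 19.4 FPKM in mutant uteri (SD, n = 4 each).

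**Figure D3:**
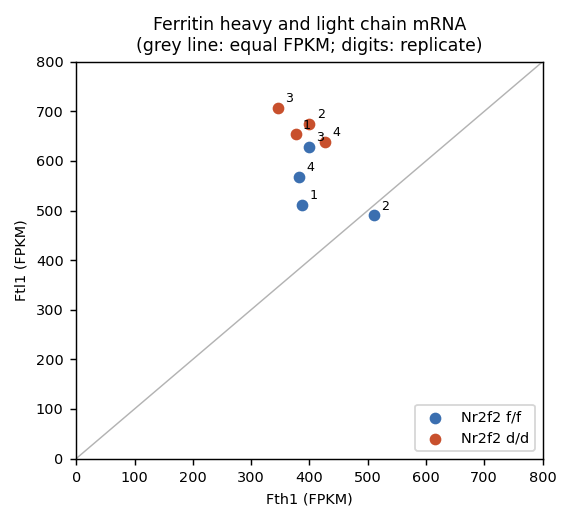
Ferritin light chain (Ftl1) against heavy chain (Fth1) mRNA in FPKM in each of the 8 uteri, numbered by replicate, with Nr2f2 f/f in blue and Nr2f2 d/d in red and a grey line of equal FPKM. All libraries except control 2 lie above the line, and the Nr2f2 d/d points lie between 639 and 708 FPKM of Ftl1.

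Uptake against storage mRNA was compared through the ratio of Tfrc to Fth1 FPKM. It was 0.0321, 0.0287, 0.0238 and 0.0247 in controls 1 to 4 and 0.0318, 0.0217, 0.0410 and 0.0164 in mutants 1 to 4. The mutants held both the highest and the lowest ratio. The mean log2 ratio differed by -0.06 (exact permutation p = 0.800), and its sign turned when control 1 was left out, and likewise for mutant 2 and mutant 4.

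Since FPKM are per length, the members can be ordered by level. In control uteri the order of mean FPKM was Ftl1, Fth1, Trf, Cp, Tfrc, Slc11a2, Heph, Slc40a1 and Hamp. Library ranges of neighbours overlapped except between Fth1 and Trf, between Tfrc and Slc11a2 and between Slc40a1 and Hamp. In mutant uteri Slc40a1 stood in the third place, ahead of Cp, Trf, Tfrc, Slc11a2, Heph and Hamp, and its range overlapped that of Cp, whose range overlapped that of Trf. All other neighbours in the mutants had separate ranges.

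The libraries that were high in Slc40a1 within their own group tended to be high in Cp as well. Over the 8 libraries, the deviations of Slc40a1 and Cp from their group means on the log2 scale had a Pearson r of 0.902, which ranked Cp 123rd of 13211 genes averaging 1 FPKM or more. Leaving out each library in turn gave r of 0.774 to 0.958. The value was 0.756 for Heph, 0.662 for Tfrc, 0.438 for Slc11a2, 0.425 for Ftl1, 0.116 for Trf and -0.274 for Fth1. These are descriptions over 8 points that share depth and tissue composition. Smooth muscle markers ran the other way: their summed level had r = -0.807 with Slc40a1, and each of the 10 genes was between -0.891 (Tagln) and -0.693. Other marker sums moved with Slc40a1 within groups too, with r of 0.757 for mesothelium, 0.712 for stroma, 0.583 for neutrophils, 0.558 for epithelium and 0.545 for macrophages, and -0.582 for T and NK cells. The remaining 5 lists lay between -0.240 and 0.212. Mutant 4, the lowest mutant in Slc40a1, had the highest smooth muscle sum (3118 FPKM) and mutant 1 the lowest (1318 FPKM), and the part of these marker levels in the pattern within groups was not tested.

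The ratio of Slc40a1 to Cp FPKM was 0.258, 0.423, 0.246 and 0.705 in controls 1 to 4 and 1.18, 1.22, 1.19 and 1.95 in mutants 1 to 4. Within the mutants it was nearly the same in replicates 1, 2 and 3, whose Slc40a1 levels spanned 27.6 to 54.9 FPKM. Because Slc40a1 chose the set, this ratio was not tested between groups.

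The 5 genes whose within-group deviations were most like those of Slc40a1, among genes averaging 1 FPKM or more, were Cmklr1 (r = 0.991), Camk2a (0.991), Lama2 (0.988), Clint1 (0.981) and Ptprj (0.979). Their own differences between the groups went in either direction: Camk2a, a calcium-dependent kinase subunit, was called higher (log2 fold change 2.58, adjusted p = 0.00795), and Lama2, a basement membrane laminin chain, was called lower (-0.85, adjusted p = 0.0299). Over the values themselves, which include the difference between the groups, the most alike were Gulp1 (r = 0.988), Cd79b (0.987), Lrrc34 (0.987), Ggt5 (0.983) and Mybpc1 (0.981).

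A pair of iron-binding secretory proteins followed a similar order of libraries. Lactoferrin, from Ltf, binds iron in secretions and is an estrogen-responsive product of the uterine epithelium. Ltf was at 11.9, 13.6, 407 and 13.9 FPKM in controls 1 to 4 and at 898, 314, 823 and 51.4 FPKM in mutants 1 to 4, and control 3 exceeded mutants 2 and 4. Its log2 fold change was 3.38 (adjusted p = 0.201), and single libraries moved it: 4.61 on leaving out control 3 (adjusted p = 0.0678), 4.27 on leaving out mutant 4 and 2.90 on leaving out mutant 1.

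Lcn2, named here after its values were seen, encodes lipocalin 2, which binds iron-carrying siderophores. Lcn2 was at 29.4, 13.8, 145 and 7.78 FPKM in controls 1 to 4 and at 199, 89.8, 452 and 18.8 FPKM in mutants 1 to 4 (log2 fold change 2.07, adjusted p = 0.331). Mutants 1 and 3 were the highest and mutant 4 the lowest of the mutants in Slc40a1, Cp, Ltf and Lcn2 alike, and control 3 was the highest control in all 4 genes. Within-group deviations of Ltf and Lcn2 had r of 0.824 and 0.800 with those of Slc40a1.

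**Figure D4:**
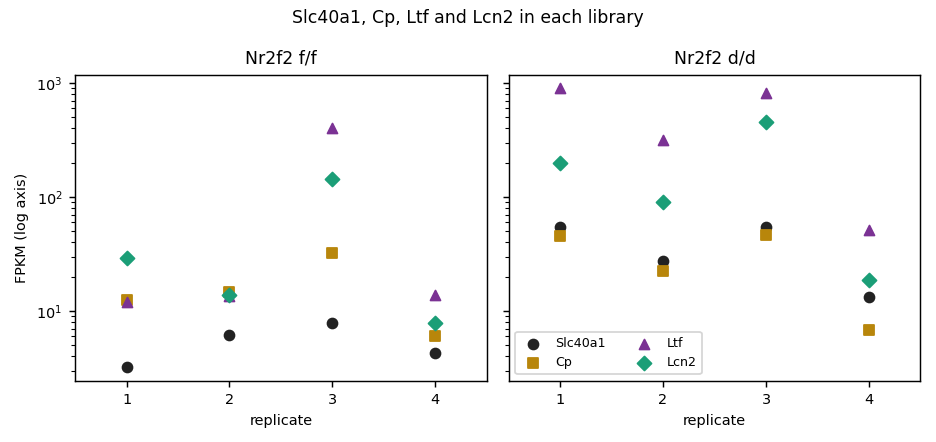
Slc40a1, Cp, Ltf and Lcn2 in each library, in FPKM on a log axis, by replicate (x axis) for Nr2f2 f/f (left) and Nr2f2 d/d (right). In all 4 genes replicate 3 is the highest Nr2f2 f/f library and replicate 4 the lowest Nr2f2 d/d library, and in Slc40a1 the lowest Nr2f2 d/d point (13.3 FPKM) is above the highest Nr2f2 f/f point (7.88 FPKM).

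Beyond the 9 genes, 8 lists of iron and heme handling held 86 further genes, of which 85 were in the table and 79 were tested. One was called, Abcg2, lower in mutants: 0 of 79 were higher and 1 of 79 lower, beside 1.09% and 1.53% of all genes. At an unadjusted p under 0.05 there were 12 of 79 (21.2% of all genes). The median log2 fold change over the 79 genes was 0.02.

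Abcg2 encodes an efflux pump of the plasma membrane whose substrates include porphyrins. Abcg2 was at 30.1, 31.2, 22.8 and 23.8 FPKM in controls 1 to 4 and at 14.0, 14.1, 15.1 and 14.7 FPKM in mutants 1 to 4, so that no ranges overlapped (log2 fold change -0.86, adjusted p = 0.0142). The adjusted p was 0.0561 without mutant 1 and 0.0636 without mutant 2. Summed endothelial markers were lower in the same uteri, as given above, and their part in this difference was not tested.

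Flvcr1, the heme exporter of the plasma membrane, fell just short of the threshold and is named here after its values were seen. Flvcr1 was at 5.15, 4.66, 4.44 and 4.45 FPKM in controls 1 to 4 and at 3.25, 3.10, 3.88 and 3.12 FPKM in mutants 1 to 4. Every mutant was below every control (log2 fold change -0.44, adjusted p = 0.0516). The adjusted p was 0.0464 without the variance trend and 0.0402 without mutant 3, and in all other alternatives it lay between 0.0515 and 0.171.

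The iron sensors themselves were not called. The iron regulatory proteins Aco1 and Ireb2, which bind the hairpins, had log2 fold changes of 0.03 and -0.07, and none of the 5 genes of their list was called (Fbxl5 and Skp1a, of the ligase that degrades Ireb2, -0.12 and 0.26). Of 14 tested genes of hepcidin control none was called. Bmp6, the endothelial signal that induces hepcidin in the liver, was above all controls in every mutant uterus (log2 fold change 0.48, adjusted p = 0.0960), and the receptor subunit Bmpr2 was below all controls (-0.25, adjusted p = 0.152).

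For uptake without the members, none of 12 tested genes was called, and the median log2 fold change was 0.23, with 9 of 12 positive. Slc22a17, a receptor for lipocalin 2, was at -0.27 on the log2 fold change scale (adjusted p = 0.146). Of 5 tested genes of iron storage, chaperones and ferritin turnover none was called, with -0.14 for the iron chaperone Pcbp2 and 0.13 for Glrx3. Hmox1, the inducible heme oxygenase that frees iron from heme, had a log2 fold change of 0.02.

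None of the 10 heme synthesis genes was called. Alad, an early enzyme of the pathway, was above all controls in every mutant (log2 fold change 0.42, adjusted p = 0.197), and Ppox, a late one, was at -0.32 (adjusted p = 0.184). None of 20 genes of mitochondrial iron and iron-sulfur clusters was called, with a median of -0.03. There Slc25a37, a mitochondrial iron importer, was below all controls at -0.30 (adjusted p = 0.221), as was the cysteine desulfurase Nfs1 at -0.13 (adjusted p = 0.262).

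**Figure D5:**
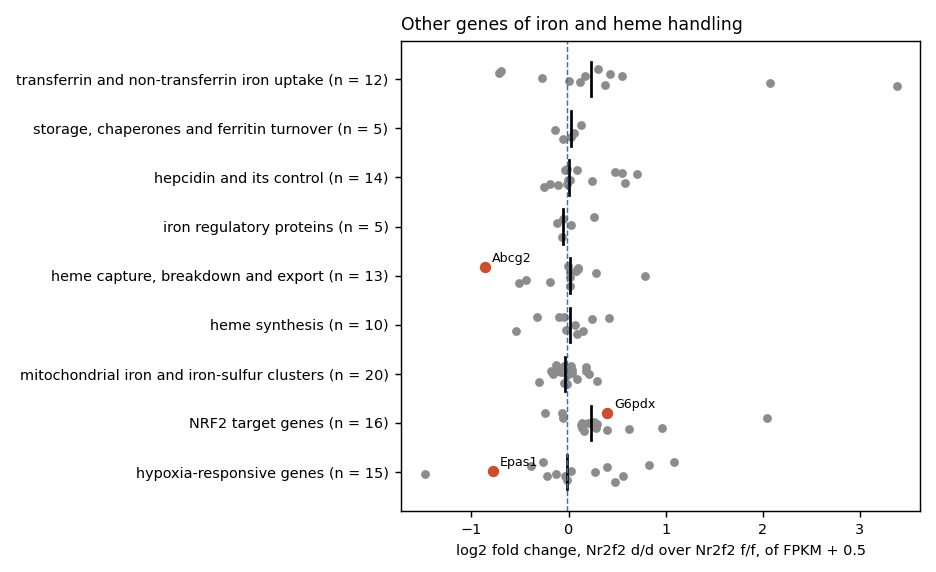
Log2 fold change of Nr2f2 d/d over Nr2f2 f/f, on the log2(FPKM + 0.5) scale, of every tested gene (points, spread vertically at random) on the lists of iron and heme handling and the NRF2 and hypoxia lists, with the 9 members left out; black bars are list medians, the dashed line is the median of all genes (-0.02), and red points passed an adjusted p of 0.05. Abcg2, G6pdx and Epas1 are the red points, and the list medians lie between -0.06 and 0.23.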

How the data were processed

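The authors deposited 1 table of FPKM per gene and library. Their methods give 76-bp paired reads, quality filtering, adapter trimming, alignment to mm10 and counting of read pairs per gene. The submitters' processing notes name cutadapt 1.12, STAR 2.5.2b, featureCounts 1.5.0-p1 and Cufflinks 2.0.2. The annotation, the strand setting and the FPKM formula are not given in the sources used here. The authors tested counts with DESeq2 at an unadjusted p under 0.05 and a fold of at least 1.4. FPKM are not counts, so log2(FPKM + 0.5) was fitted here with limma 3.58.1 (R 4.3.3, lmFit, eBayes with trend, two-sided) over the 14323 genes that averaged 0.5 FPKM or more, with Benjamini-Hochberg adjustment. The method was first tested on simulated data. Single genes and ratios also had a two-sided exact permutation test over the 70 arrangements of 8 libraries. All 8 columns of values were matched to samples (0 unmatched). P-values measure the spread between these uteri.

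The 9 genes and all lists were chosen with earlier results of these data known. Besides the members and Nr2f2, the text names in each iron list the genes with an adjusted p under 0.05 or else the 2 with the smallest p, the 5 genes most like Slc40a1 by each correlation, and the highest gene of each marker list. Genes outside this rule (Lcn2, the iron regulatory proteins, Hmox1, Hephl1, Hamp2, Flvcr1, Flvcr2, Lrp1, Tmprss6 and further marker, NRF2 and hypoxia genes) were added after their values were seen, for their role or their call.

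Depth was worked out from short single-exon genes with the same length in GENCODE and RefSeq: at the total found, 89.7% to 97.6% of 32 to 42 low values per library were whole fragments within 0.1. Such whole values came from a chosen set of genes, so no count test was run. Limits from 3 fragments cover counting error only. The globin genes were at 0 in all libraries, so the erythroid list (Alas2 leading, 1 gene tested, not called) does not measure blood. Of 10 hepatocyte markers, led by Ttr, 2 were tested and not called. Alternatives were another added value, filter, scaling or variance model, a replicate block, and leaving out each library.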

Additional observations from a re-analysis of the deposited data

Results flagged for a closer look

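In 4 of the 52 groups of 4 libraries looked at, 1 library stood far from the other 3, where chance alone gives about 5% of groups, and the genes share the same libraries. Fth1 was at 511 FPKM in Nr2f2 f/f replicate 2 and at 383 to 400 FPKM in the other controls. Slc25a37 was at 20.2 FPKM in the same library and at 13.9 to 14.5 FPKM in the other controls. Ltf was at 407 FPKM in Nr2f2 f/f replicate 3 and at 11.9 to 13.9 FPKM in the other controls. Nr2f2 itself was at 6.90 FPKM in Nr2f2 d/d replicate 3 and at 9.42 to 9.74 FPKM in the other mutants.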

How the results depend on the processing

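Slc40a1 stayed higher in Nr2f2 d/d under every alternative run, with log2 fold changes of 2.30 to 2.97, and Cp, Heph, Trf, Slc11a2 and Ftl1 kept their sign with no adjusted p under 0.05. Leaving out 1 library gave 42 to 348 called genes over the whole table (62, 208 and 95 on dropping control replicate 1, 3 or 4, and 57 and 42 on dropping mutant replicate 1 or 2), 1082 to 1442 genes at the study's threshold, 0 to 1 iron genes called higher, 0 to 2 called lower, and Nr2f2 differences of -1.44 to -1.28. The same step gave -0.31 to 0.01 for Tfrc (0.01 without Nr2f2 d/d replicate 4), -0.16 to -0.01 for Fth1, -0.49 to -0.25 for the Fth1 to Ftl1 ratio, and -0.27 to 0.17 for the Tfrc to Fth1 ratio, which reversed to 0.02, 0.03 and 0.17 without Nr2f2 f/f replicate 1, Nr2f2 d/d replicate 2 and Nr2f2 d/d replicate 4. Without a variance trend, 2 iron genes were called lower, Abcg2 and Flvcr1. Marker sums without each list's leading gene were added after seeing the data: besides those given above, epithelial, stromal and endothelial sums stayed separate and macrophage and smooth muscle sums overlapped. No pairing of the uteri by replicate number was seen: deviations of libraries with the same title number correlated at -0.204, -0.172, 0.0452 and -0.0403. By the numbers inside the labels, r was -0.204, 0.149 and -0.0403 for those numbered 1, 3 and 5. Such correlations cannot exclude a shared batch. With the title numbers as a replicate block, 1 gene was called, 0 iron genes were lower and Nr2f2 was at -1.39 (adjusted p = 0.0714). With the numbers inside the labels as the block, chosen after seeing the data, 0 genes were called, 0 iron genes were lower, Fth1 reversed to 0.04 and Nr2f2 was at -1.32 (adjusted p = 0.0619). The cause of these changes was not tested, though a block takes degrees of freedom. Depth limits Hamp alone among the members.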

Other observations

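A pair of lists next to iron handling were also looked at. The NRF2 list holds the oxidant-responsive enzymes together with the regulators Nfe2l2 and Keap1. Of its 16 tested genes 1 was called higher, beside 1.09% of all genes: G6pdx, the entry enzyme of the pentose phosphate pathway (0.40, limma adjusted p = 0.0375). It was at 28.8 to 33.5 FPKM in Nr2f2 f/f and 38.1 to 43.6 FPKM in Nr2f2 d/d uteri. In 5 of the 16 genes every mutant was above every control, beside 5.49% of all genes: G6pdx, Slc7a11, Gsr, Srxn1 and Taldo1. The list median was 0.23. Slc7a11, the cystine transporter subunit, was at 0.557, 0.357, 1.91 and 1.15 FPKM in Nr2f2 f/f and at 9.99, 4.29, 6.07 and 2.66 FPKM in Nr2f2 d/d replicates 1 to 4 (log2 fold change 2.04, adjusted p just above 0.05). Nfe2l2 itself had a log2 fold change of -0.07.

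Of 15 tested hypoxia-responsive genes, Epas1, which encodes HIF-2α, was called lower (-0.78, limma adjusted p = 0.0366), at 27.0 to 41.8 FPKM in Nr2f2 f/f and 17.1 to 21.2 FPKM in Nr2f2 d/d uteri, beside 1.53% of all genes called lower, and the list median was -0.02. At the study's threshold 3 genes of the list were higher, beside 4.70% of all genes: Egln3 (1.09), Ankrd37 (0.83) and Egln1 (0.56). At the same threshold 2 were lower, beside 4.10% of all genes: Epas1 and Ndrg1 (-1.48, all mutants below all controls). Epas1 is abundant in endothelium, whose markers were lower in the same libraries, and their part in it was not tested. Leaving out 1 library kept the adjusted p under 0.05 in 1 of 8 fits for Epas1 and in 1 of 8 for G6pdx, each time without Nr2f2 f/f replicate 3. G6pdx also lost its call under quantile normalization (0.35, adjusted p = 0.0576). Neither gene was called with a replicate block. With the title numbers as the block the limma adjusted p was 0.156 for Epas1 and 0.160 for G6pdx. With the numbers inside the labels it was 0.119 and 0.147.

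Within groups, a few other iron and heme genes tracked Slc40a1 over the 8 libraries, given with no p. The highest r of the listed iron and heme genes was that of Tmprss6, a protease that restrains hepcidin signalling in the liver (r = 0.982). Tmprss6 averaged 0.509 FPKM in Nr2f2 f/f and 1.20 FPKM in Nr2f2 d/d uteri (log2 fold change 0.71, limma adjusted p = 0.201). Lrp1, a receptor that takes up heme bound to hemopexin, had r = 0.958, and the heme transporter gene Flvcr2 had r = -0.901.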
